A study of Homo sapiens with 12 samples.

Results

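Erastin blocks system Xc-, the antiporter that brings cystine into the cell in exchange for glutamate. The response of SK-N-AS cells to this compound was followed here across all genes. SK-N-AS is an established human neuroblastoma cell line without amplification of MYCN, and it has mesenchymal as well as adrenergic features. The group labelled Erastin held 3 samples kept in 2 µM Erastin for 24 h, and the DMSO group held 3 samples given the solvent and harvested at 24 h. All 6 were grown in RPMI medium with serum, and no genetic change is named for any of them. Together they made up 6 of the 12 samples of the series, whose other 6 were KELLY cells (MYCN amplified) with DMSO or with 1 µM Erastin. The members were chosen by sample label, and every gene counted in the 6 samples belonged to them: 58735 gene names were listed, and 16095 held enough reads to be tested. The series calls its samples biological triplicates, and the methods seed wells in triplicate. Whether these were separate cultures is not stated, so p-values measured the spread between these samples, which may be technical.

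Cystine is reduced to cysteine inside the cell, and cysteine is the limiting building block of glutathione. Glutathione in turn feeds GPX4, the enzyme that removes lipid peroxides and so holds back ferroptosis, an iron-dependent form of cell death. A shortage of an amino acid leaves tRNAs uncharged, which activates the kinase GCN2, lowers general translation by phosphorylating eIF2α, and raises translation of the transcription factor ATF4. ATF4 and its partners bind composite elements of C/EBP and ATF half-sites in genes for amino acid synthesis, amino acid import and tRNA charging. Oxidative stress releases NRF2, which binds antioxidant response elements in genes for glutathione synthesis and NADPH supply. These facts are background and were not measured here.

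The total count per sample lay between 25696149 and 29835670, and levels are given as CPM, counts scaled to library size. All 13 adrenergic and all 12 mesenchymal neuroblastoma markers had more than 3 counts in at least 1 sample, a low bar. Their summed levels were 1219 to 1421 CPM and 2773 to 3103 CPM. MYCN, which is amplified in KELLY, had 11, 7 and 11 counts with DMSO and 2, 3 and 1 counts with Erastin. Of 11 markers of leukocytes and NK cells, 4 were at 0 in all samples and 8 had at most 3 counts in each. PTPRC alone, with 12835 to 16496 counts, carried nearly all of that list's 447 to 610 CPM. The 8 red blood cell markers summed to 0 to 2 counts with DMSO and to 63, 7 and 9 counts in Erastin replicates 1 to 3, mainly HBB and HBA2. Mitochondrial transcripts took 6.06, 6.66 and 6.94% of counts with DMSO and 6.98, 7.03 and 7.91% with Erastin.

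Replicates were unlike each other in their bias with the GC content of exons. DMSO replicate 1 favoured GC-rich genes and DMSO replicate 3 favoured GC-poor genes. The log2 ratio of a library to the mean of the 6 had a Spearman correlation with GC content of 0.767, 0.256 and -0.747 in DMSO replicates 1 to 3, taken over 11983 genes that are no replicates of each other. The Erastin replicates had values of -0.295, 0.428 and -0.446. Each comparison was therefore made both on the counts as they were and after a loess curve on GC content had been removed from each library. The biological coefficient of variation fell by this from 0.105 to 0.0573. Unless stated otherwise, CPM, log2 fold changes (± SE) and adjusted p-values below come from the fit with the GC trend removed, and replicates are listed in the order 1 to 3. A gene was called where edgeR's quasi-likelihood test gave a Benjamini-Hochberg adjusted p under 0.05 over all genes tested.

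**Figure D1:**
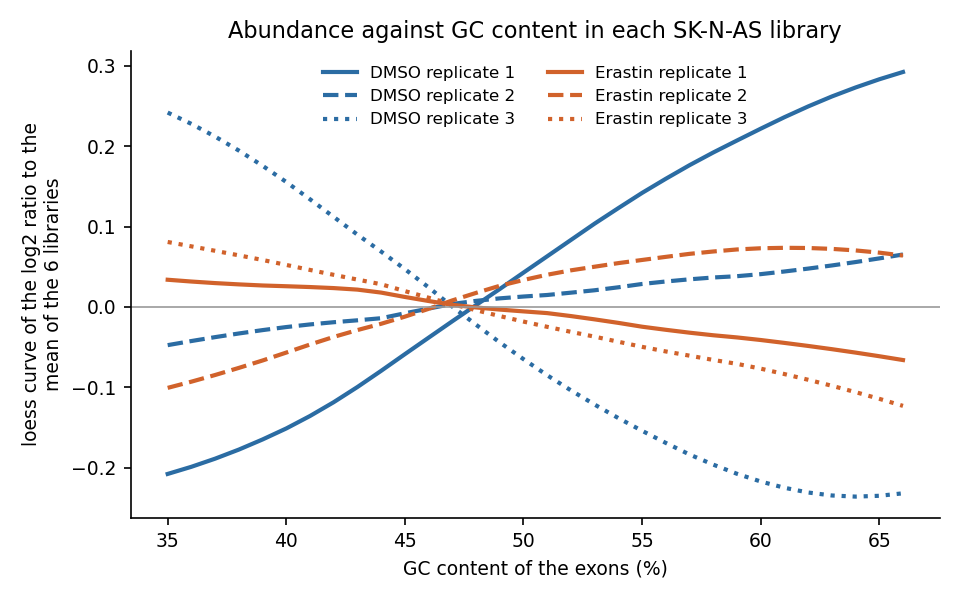
Loess curves of the log2 ratio of each SK-N-AS library to the mean of the 6 libraries (y axis) against the GC content of the exons in percent (x axis), blue for DMSO and orange for Erastin, with line type giving the replicate. The curves of DMSO replicates 1 and 3 run in opposite directions and lie further from 0 than those of the 3 Erastin libraries.

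Without the GC correction 74 genes were called higher with Erastin (0.46% of those tested) and 32 lower (0.199%). With the GC trend removed 390 were called higher (2.42%) and 526 lower (3.27%). These shares are the background for the list counts of this fit given below. All 106 genes called on the uncorrected counts were called again in the same direction. Of the 390 that rose with the trend removed, 46 changed at least 2-fold, 50 changed 1.5 to 2-fold and 294 less than 1.5-fold, and of the 526 that fell 20, 58 and 448 did so. On uncorrected counts the same sizes held 33, 27 and 14 rises and 4, 21 and 7 falls. The study's methods use a looser threshold, p up to 0.05 before adjustment and a 1.5-fold change, by which 215 genes were higher (1.34%) and 214 lower (1.33%) on uncorrected counts. The median log2 fold change of all genes tested was -0.01 without and -0.00386 with the correction.

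The number of small changes depended on single libraries and on the test. Without DMSO replicate 3 the uncorrected counts gave 289 higher and 566 lower, without DMSO replicate 2 only 47 and 6, and without DMSO replicate 1 96 and 59. Without Erastin replicates 1, 2 or 3 the uncorrected calls were 62 and 15, 53 and 14, and 56 and 14. With the GC trend removed, the counts were 203 and 240 without DMSO replicate 2 and 259 and 289, 171 and 181, and 180 and 189 without Erastin replicates 1, 2 and 3. Limma-voom called 205 and 214 on the same corrected values, and a fit over all 12 samples of both lines called 111 and 69. With the GC trend removed, 145 of the 390 rises and 134 of the 526 falls were called in each of the 6 fits that left out a library. Genes called higher had a median exonic length of 6544 bases, those called lower 4826 bases and all genes with a mean log2 CPM of at least 1 5543 bases, and across these genes the log2 fold change had a Spearman correlation with length of 0.14. A second curve on exonic length gave 435 genes higher and 597 lower, and 872 of the 916 calls were among them. The part of mitochondrial share and of the red cell counts in the results was not tested.

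**Figure D2:**
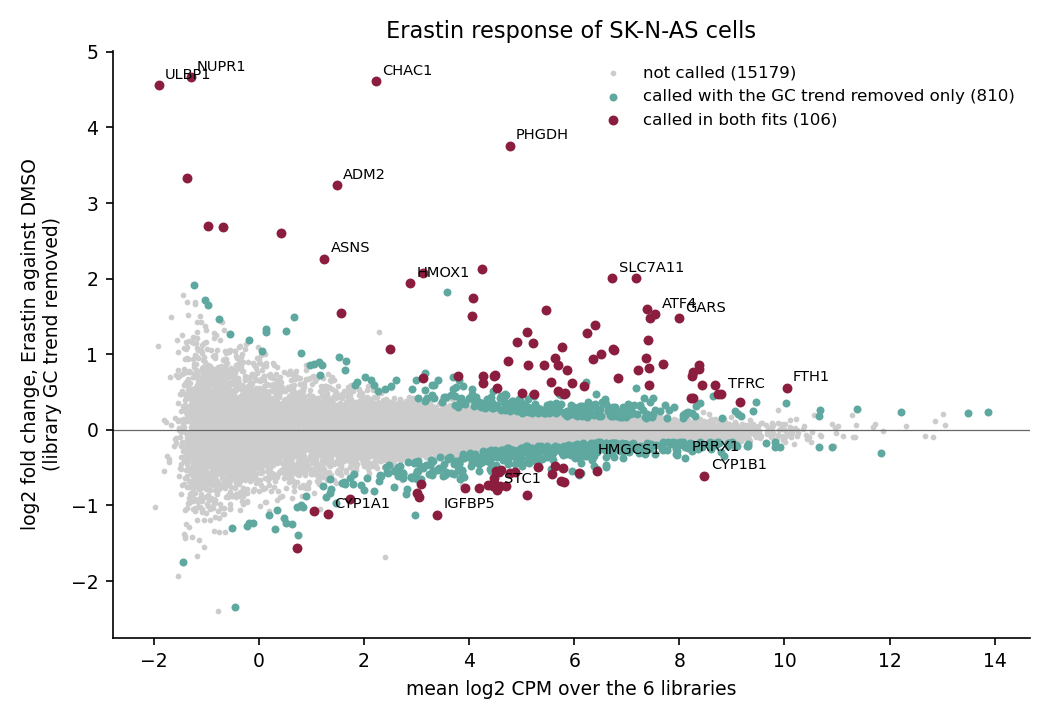
Log2 fold change of Erastin against DMSO with the library GC trend removed (y axis) against mean log2 CPM over the 6 libraries (x axis), 1 point per gene tested. The 106 genes called in both fits (dark red) include most of the large rises, while the 810 called with the GC trend removed alone (green) lie close to the line of no change at high abundance.

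The regulators at the head of the amino acid response rose together. Of 11 transcription factors and partners of the ATF4 network that were tested, 8 were called higher and none lower, in both fits, with a median log2 fold change of 0.95 beside -0.00386 for all genes. 1 of the 8, NUPR1, passed the filter on low counts through its Erastin samples alone. With at least 10 counts asked of every sample, 7 of 10 were called higher in both fits. In bulk RNA such as this, more cells with a transcript and more transcript per cell cannot be told apart. ATF4 itself had 99.2, 111 and 120.0 CPM with DMSO and 296, 335 and 320.3 CPM with Erastin, a log2 fold change of 1.53 ± 0.06 (adjusted p = 8.77e-10). Every Erastin sample stood far above every DMSO sample. JDP2, a bZIP protein of the AP-1 family, rose from 8.93, 8.64 and 9.85 CPM to between 27.6 and 35.0 CPM. TRIB3, a pseudokinase that is induced by ATF4 and restrains it, rose from 35.8, 38.4 and 38.8 CPM to 68.9, 90.9 and 80.0 CPM.

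ATF3, CEBPB and CEBPG, which pair with ATF4 or follow it, rose by 1.07 ± 0.15, 0.95 ± 0.08 and 0.85 ± 0.06 on the log2 scale. XBP1, the transcription factor of the unfolded protein response, rose by 0.69 ± 0.06. NUPR1, a small stress-induced chromatin protein, went from 2, 1 and 1 counts to 21, 63 and 32 counts, a ratio of 28.1 of summed counts over depth (95% exact interval 10.7 to 105, counting error only). DDIT3, which encodes CHOP, was not called, at 3.24, 2.84 and 2.25 CPM against 4.16, 3.87 and 4.07 CPM (log2 fold change 0.54 ± 0.17, adjusted p = 0.0856). ATF5 had a log2 fold change of 0.05 ± 0.08. Among 7 genes for the eIF2α kinases, the phosphatase subunits and eIF2α, 1 was called: PPP1R15B, the constitutive subunit that directs phosphatase to eIF2α, rose from 191, 184 and 191 CPM to 241, 241 and 232 CPM (adjusted p = 0.000237). EIF2AK4, which encodes GCN2, had overlapping groups at 143 to 159 CPM. Of all genes 2.42% were called higher and 3.27% lower with the GC trend removed.

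The upstream DNA of the rising genes was compared for 2 short motifs, since these elements are the ones by which ATF4 and NRF2 are known to act. RefSeq promoter sequences (GRCh38.p14) could be matched to 11061 of the tested genes, and the 250 bases before the annotated start were searched on both strands. The core of the C/EBP-ATF response element, TGATGNAA, was found in 8 of 60 promoters of genes called higher without correction (13.3%), in 1 of 24 called lower (4.17%) and in 155 of all 11061 (1.4%). After the correction it was found in 21 of 305 promoters of rising genes (6.89%) and 7 of 422 of falling genes (1.66%). The core of the antioxidant response element, TGACNNNGC, stood in 15.4% of promoters of rising genes and 9.24% of falling genes after the correction, in 13.3% and 8.33% without it, and in 12.1% of all. Among genes that rose at least 2-fold it stood in 6.9% with and 4.17% without the correction. The 2 motifs share the letters TGA and may overlap. A match is a description of these windows and not a measured binding site. The 8 matches among the genes called higher without correction are printed in gene orientation, 5′ to 3′, with the motif in capitals on either strand and up to 20 bases on each side, all from GRCh38.p14 and ordered by size of the rise.
CHAC1, chr15:40953242-40953289, gene on the plus strand: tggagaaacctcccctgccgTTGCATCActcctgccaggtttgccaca
ASNS, chr7:97872449-97872496, gene on the minus strand: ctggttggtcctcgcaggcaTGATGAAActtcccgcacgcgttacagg
AARS, chr16:70289666-70289713, gene on the minus strand: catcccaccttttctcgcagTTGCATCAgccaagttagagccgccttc
ATF3, chr1:212565196-212565243, gene on the plus strand: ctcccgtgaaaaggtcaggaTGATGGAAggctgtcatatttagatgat
MTHFD1L, chr6:150866337-150866384, gene on the plus strand: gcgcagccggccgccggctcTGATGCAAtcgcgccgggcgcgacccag
HERPUD1, chr16:56931946-56931993, gene on the plus strand: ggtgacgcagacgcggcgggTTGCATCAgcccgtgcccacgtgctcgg
GOT1, chr10:99430795-99430842, gene on the minus strand: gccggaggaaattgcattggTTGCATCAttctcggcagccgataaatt
IARS, chr9:92293698-92293730, gene on the minus strand: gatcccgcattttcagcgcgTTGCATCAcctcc
In 5 of these 8 the element reads TTGCATCA, the reverse complement of TGATGCAA. The motif lay between 13 bases (IARS) and 209 bases (CHAC1) before the annotated start.

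Genes of cystine import and glutathione turnover included the largest rise among genes with a mean log2 CPM of at least 1. Of 15 tested, 5 were called higher and none lower in both fits, with a median of 0.33. CHAC1, an enzyme that degrades glutathione and a known target of ATF4, had 0.974, 0.756 and 1.01 CPM with DMSO and 18.1, 27.1 and 21.9 CPM with Erastin (log2 fold change 4.61 ± 0.18). SLC7A11, the transport subunit of the antiporter that Erastin blocks, rose from 55.0, 54.0 and 49.8 CPM to 185, 239.6 and 213 CPM (2.01 ± 0.08, adjusted p = 7.05e-10). Its partner SLC3A2 rose by 1.06 ± 0.08. GCLM, the modifier subunit of the first enzyme of glutathione synthesis, rose from 60.7, 59.9 and 56.9 CPM to 102, 127 and 112 CPM. The catalytic subunit GCLC was not called, with a log2 fold change of 0.21 ± 0.06 (adjusted p = 0.0633). CBS, which starts transsulfuration of homocysteine to cysteine, was called (0.85 ± 0.17) but rose unevenly, from 26.1, 30.6 and 42.0 CPM to 49.2, 48.3 and 80.3 CPM, and a near-identical copy of CBS in the genome build makes its counts uncertain.

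Of 13 genes that execute or restrain lipid peroxidation, none was called by edgeR, DESeq2 or limma-voom in either fit, beside 2.42% higher and 3.27% lower among all genes with the GC trend removed, and their median was 0.07. At an unadjusted p under 0.05, edgeR gave 1 of them with the GC trend removed and 0 without. GPX4 had 136, 165 and 167 CPM with DMSO and 162, 159.6 and 168 CPM with Erastin, overlapping groups. ACSL4, which loads polyunsaturated fatty acids into the lipids that are oxidised, had a log2 fold change of -0.16 ± 0.05 (adjusted p = 0.0612). It was called lower with an added length curve, with a straight line on GC content, with the GC slope as a covariate, among protein-coding genes alone and with a replicate block. Among 14 genes of iron handling 3 rose and 1 fell, and 1 of the rises, HMOX1, is also among the NRF2 targets below. FTH1, the heavy chain of the iron store ferritin, rose from 869, 855 and 890.1 CPM to 1117, 1407 and 1329 CPM, and TFRC, the transferrin receptor that brings iron in, from 369, 379 and 388 CPM to 521, 529 and 522 CPM. Both were called without the correction too, but there neither was called without DMSO replicate 2, without Erastin replicate 2 or in the fit over all 12 samples, and TFRC also not without Erastin replicates 1 or 3. STEAP3, an iron reductase of endosomes, fell by 0.38 on the log2 scale (SE 0.06).

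NRF2 targets rose in larger number once the GC trend was removed, as did genes in general. Over all genes, 0.46% were called higher without the correction and 2.42% with it. Of 28 targets and NADPH-supplying enzymes, 3 were called higher without the correction and 11 with it, none lower, and the median was 0.23. HMOX1, which breaks down haem and releases iron, rose from 3.90, 3.97 and 3.34 CPM to 10.7, 16.0 and 16.6 CPM (1.94 ± 0.16), with Erastin replicate 1 well below the other 2. TXNRD1, the cytosolic thioredoxin reductase, rose from 335, 339 and 332 CPM to 461, 563 and 497 CPM. NQO1, a quinone reductase, rose by 0.42 ± 0.06. ME1, which makes NADPH, rose by 0.31 ± 0.06, and TKT of the pentose phosphate pathway by 0.20 ± 0.05. SQSTM1, the autophagy receptor that binds the NRF2 inhibitor KEAP1, rose from 122, 131 and 125 CPM to 149.9, 163 and 163 CPM. TRIM16 and TRIM16L were also called (0.69 ± 0.11 and 0.66 ± 0.14), but they share near-identical sequence. The list's count was 6 without Erastin replicate 2, 6 with limma-voom and 4 in the fit over all 12 samples.

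Enzymes that make serine, glycine and one-carbon units showed a split between a few strong responders and the remainder. Of 23 tested, 6 rose and none fell in both fits, yet the median was 0.02. The pathway from glycolysis to serine rose at each of its 3 steps. PHGDH, the first enzyme, went from 7.90, 7.97 and 6.54 CPM to 75.4, 127 and 102 CPM (3.76 ± 0.16, adjusted p = 8.77e-10). PSAT1, the second, went from 67.6, 76.6 and 72.6 CPM to 234, 344 and 297 CPM, and PSPH, the third, from 19.1, 20.3 and 21.2 CPM to 38.1, 50.2 and 47.4 CPM. The other 3 act in mitochondria: SHMT2, MTHFD2 and MTHFD1L rose by 1.07 ± 0.07, 1.48 ± 0.07 and 0.91 ± 0.09.

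Among 18 enzymes of asparagine, alanine, proline, glutamate and arginine metabolism, 5 rose and none fell, with a median of 0.03. ASNS, asparagine synthetase, had few reads assigned to it, at 1.36, 0.356 and 1.65 CPM with DMSO and 4.82, 6.38 and 5.25 CPM with Erastin (2.27 ± 0.30). Whether this low count reflects low expression or reads lost to overlapping annotation was not tested. PCK2, a mitochondrial enzyme that makes phosphoenolpyruvate, rose from 24.2, 27.9 and 24.8 CPM to 60.9, 91.9 and 76.5 CPM. GPT2, PYCR1 and GOT1, which act on alanine, proline and aspartate, rose by 1.29 ± 0.08, 1.00 ± 0.07 and 0.51 ± 0.06. ASS1, the argininosuccinate synthase of arginine synthesis, was among the abundant members at 914 to 1026 CPM and had overlapping groups.

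Amino acid transporters rose in 7 of 21 cases and fell in none (5 and none without the correction), with a median of 0.14. Of all genes 2.42% were called higher with the correction and 0.46% without it. SLC1A4, a carrier of serine and alanine, rose from 10.3, 7.88 and 9.02 CPM to 32.9, 46.7 and 39.4 CPM (2.13 ± 0.12). SLC6A9, the glycine transporter GlyT1, rose from 4.18, 3.72 and 4.71 CPM to 16.0, 19.1 and 17.9 CPM. SLC7A5, the leucine carrier that shares SLC3A2 with SLC7A11, rose from 100.2, 93.7 and 96.2 CPM to 252, 331 and 293 CPM. SLC7A1 for cationic amino acids and SLC1A5 for glutamine rose by 0.87 ± 0.05 and 0.59 ± 0.06. SLC38A1 and SLC38A2 were called only with the GC trend removed, by 0.25 ± 0.05 and 0.21 ± 0.05.

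The lists of cytosolic and mitochondrial aminoacyl-tRNA synthetases, the enzymes that charge tRNAs, differed in their counts. Of 20 cytosolic enzymes 11 rose and none fell, with a median of 0.45, and the same count of 11 was obtained without any 1 library, with limma-voom and in the fit over all 12 samples. On uncorrected counts it lay between 9 and 11 in the alternatives. GARS for glycine rose from 160.1, 156 and 144 CPM to 373, 485 and 419.9 CPM, CARS for cysteine from 50.4, 50.0 and 55.2 CPM to 127, 145 and 136 CPM, and AARS for alanine from 113, 113 and 111 CPM to 239, 274 and 251 CPM. The rises of the other 8 (YARS, WARS, EPRS, SARS, MARS, TARS, IARS and NARS) lay between 0.42 and 0.94. LARS and KARS, for leucine and lysine, had overlapping groups, the latter at 304 to 325 CPM. Of 17 enzymes in the mitochondrial list, which leaves out GARS and KARS, none rose and 1 fell, beside 3.27% of all genes called lower. This was FARS2, by 0.30 on the log2 scale (SE 0.07), which was not called without DMSO replicate 2 or without any of the 3 Erastin replicates.

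Brakes on the growth kinase mTORC1 and secreted stress hormones were also among the rises. SESN2, a sensor of leucine, rose from 8.41, 11.4 and 9.92 CPM to 23.1, 30.8 and 29.9 CPM. DDIT4 rose from 22.3, 23.0 and 20.7 CPM to 47.4, 61.0 and 53.2 CPM, and EIF4EBP1, the repressor of cap-dependent translation, by 0.64 ± 0.09 with the GC trend removed alone. They were 3 of 14 tested, with none lower and a median of 0.14. ADM2, a peptide of the calcitonin family, went from 0.668, 1.17 and 0.832 CPM to 7.02, 9.64 and 8.33 CPM (3.24 ± 0.21). INHBE, a subunit of activin E, had 0.467, 0.231 and 0.945 CPM with DMSO and 2.31, 4.37 and 3.13 CPM with Erastin. VEGFA rose by 0.47 ± 0.06. The stanniocalcins moved in opposite directions: STC2 rose from 62.3, 58.3 and 57.7 CPM to 81.3, 97.8 and 86.3 CPM, and STC1 fell from 30.2, 31.8 and 29.5 CPM to 18.5, 18.5 and 15.9 CPM.

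**Figure D3:**
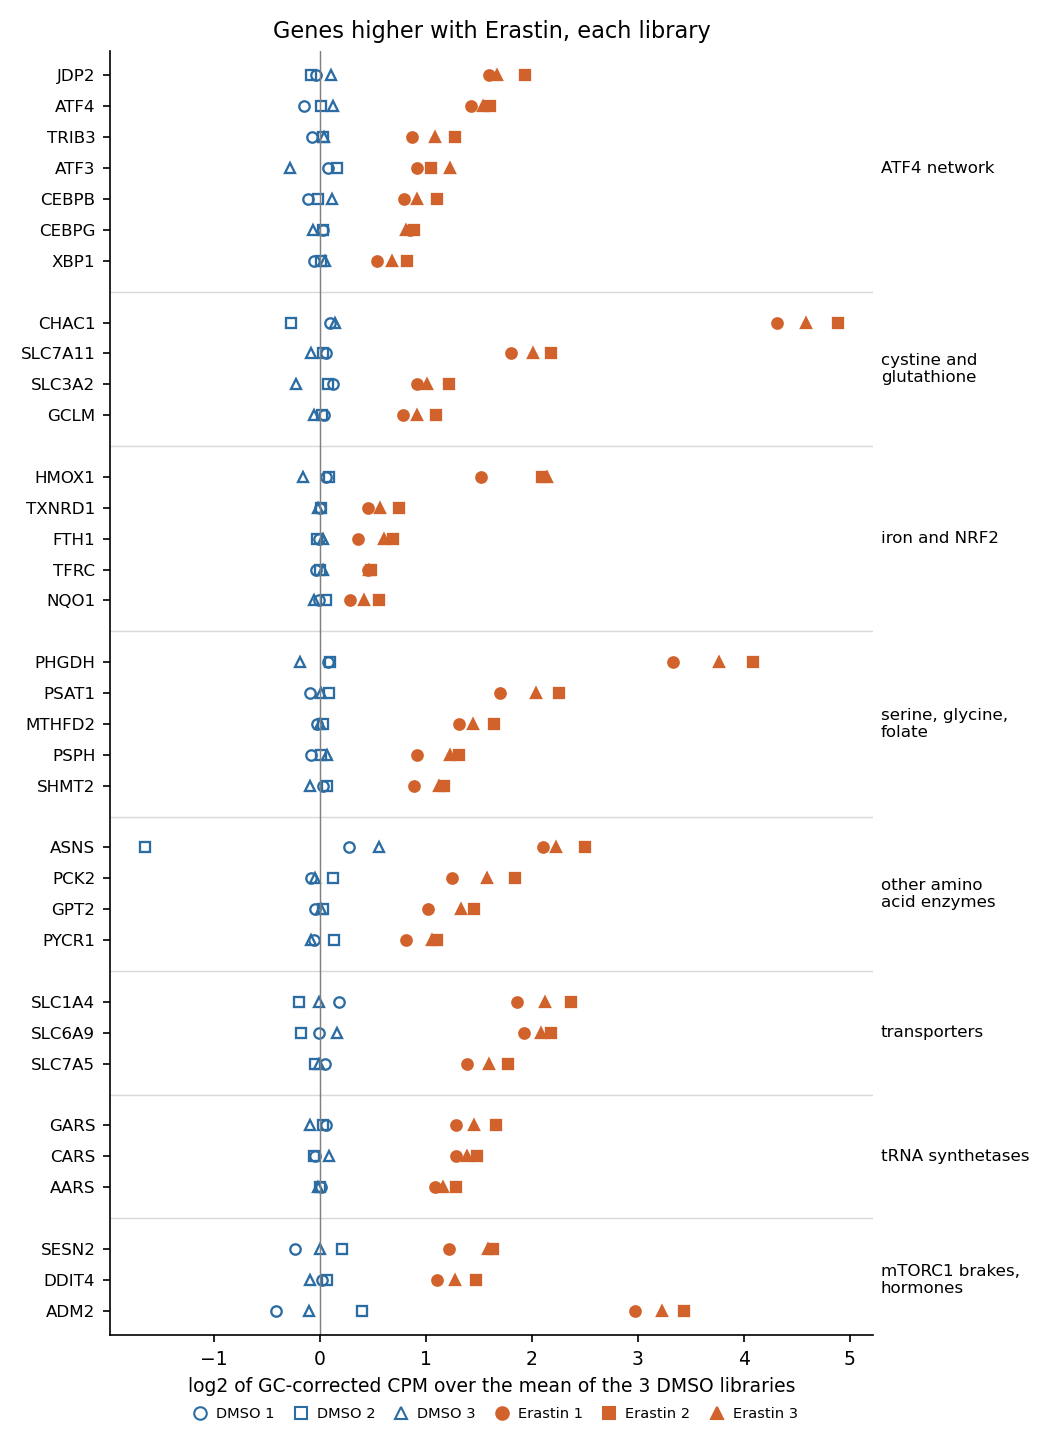
Log2 of GC-corrected CPM over the mean of the 3 DMSO libraries (x axis) for genes that rose, 1 row per gene, with blue open symbols for DMSO and orange filled symbols for Erastin and the shape giving the replicate. Erastin replicate 1 (orange circle) is the lowest of the 3 Erastin libraries in most rows.

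The 3 Erastin libraries did not respond to the same extent. Of the 74 genes called higher without correction, Erastin replicate 1 had the smallest rise in 67, replicate 2 in 1 and replicate 3 in 6, and the median log2 ratio of these genes to the DMSO mean was 0.79, 1.04 and 0.92. Among the 32 called lower the smallest fall lay in replicate 1 for 12 genes, in replicate 2 for 8 and in replicate 3 for 12. Over the larger set called with the GC trend removed, replicate 1 had the smallest change in 244 of 390 rises and 269 of 526 falls, replicate 2 in 64 and 127, and replicate 3 in 82 and 130. Erastin replicate 1 is also the library with 63 red blood cell marker counts, whose part in this was not tested. Without it and with the GC trend removed, the ATF4 network list, the tRNA synthetases and the serine list had counts of 8, 11 and 6 called higher, against 8, 9 and 6 on uncorrected counts.

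Stress programmes next to the amino acid response were called in some members, beside 2.42% of all genes called higher and 3.27% lower. Of 21 ER chaperones and unfolded protein response genes 3 rose: HERPUD1, which serves ER-associated degradation, from 41.1, 39.8 and 34.1 CPM to 59.7, 79.6 and 68.5 CPM, and EDEM1 and SEL1L by 0.20 ± 0.05 and 0.16 ± 0.04. The last 2 were not called without DMSO replicate 2 or without any 1 of the Erastin replicates. The main ER chaperone HSPA5 had overlapping groups at 1056 to 1157 CPM. Cytosolic heat shock genes went the other way, with none of 14 higher, 3 lower and a median of -0.12. HSPA8, HSPB1 and HSPH1 fell by 0.23, 0.25 and 0.26 on the log2 scale, and the mitochondrial chaperone HSPD1 by 0.23. Only HSPH1 of the heat shock list was called without DMSO replicate 2 or without Erastin replicates 2 or 3. PMAIP1, which encodes the BH3-only protein NOXA, rose from 23.2, 25.5 and 25.7 CPM to 48.9, 61.0 and 55.6 CPM and was 1 of 2 p53 targets called higher of 20, while CDKN1A, the cell cycle inhibitor of that list, had overlapping groups. KLF2, a transcription factor of the Krüppel family, rose from 1.36, 1.67 and 2.13 CPM to 4.33, 5.85 and 4.62 CPM.

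Autophagy and lysosome genes rose in 4 of 28 cases and fell in none, with a median of 0.12, all 4 with the GC trend removed alone. 1 of the 4 was SQSTM1, which is shared with the NRF2 list. ULK1, the kinase that starts autophagy, rose from 85.2, 79.3 and 90.0 CPM to 105, 115 and 109 CPM, and the receptor NBR1 by 0.32 ± 0.05. Genes induced by hypoxia rose in 6 of 19 cases, again with none lower and a median of 0.12. STC2 and VEGFA among them are shared with the list of secreted stress hormones. BNIP3L, a mitophagy receptor, rose from 72.0, 70.8 and 70.3 CPM to 86.2, 87.7 and 88.6 CPM, and EGLN3 and PDK1 by 0.32 ± 0.07 and 0.33 ± 0.07. EGLN3 and PDK1 were not called in every fit that left out a library. NDUFA4L2 went from 6, 2 and 0 counts to 26, 43 and 15 counts, a ratio of 10.2 (95% exact interval 4.93 to 24.3, counting error only). It passed the filter on low counts through its Erastin samples alone. In glycolysis, of 23 genes 1 rose and 3 fell, LDHA by 0.22 on the log2 scale (SE 0.05), and none of the 3 falls was called without DMSO replicate 2 or Erastin replicates 2 or 3. Over all genes, 2.42% were called higher and 3.27% lower with the GC trend removed. None of 21 TCA cycle genes, 70 nuclear respiratory chain genes or 79 cytosolic ribosomal protein genes was called by edgeR, DESeq2 or limma-voom in either fit. An unadjusted edgeR p under 0.05 was reached by 0, 4 and 7 of them with the GC trend removed. This fit called 1, 2 and 8 of them lower without DMSO replicate 1, and 1, 2 and 6 without DMSO replicate 3. Of the respiratory chain genes, 3 were called lower with a replicate block or with the GC slope as a covariate. Negative log2 fold changes were seen in 12 of 21, 48 of 70 and 66 of 79 with the GC trend removed.

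ULBP1, a ligand of the NK cell receptor NKG2D, was nearly silent without the compound. Its counts were 0, 2 and 0 in DMSO against 13, 21 and 24 in Erastin. The ratio of summed counts over depth was 28.1 (95% exact interval 7.43 to 237, counting error only), and the gene was called in both fits (adjusted p = 0.0144 without and 0.0019 with the correction). Even with Erastin its level stayed between 0.471 and 0.912 CPM. Of the 8 NKG2D ligands in the list only ULBP1, MICA and MICB passed the filter on low counts. ULBP1 did so through its Erastin samples alone, so its call depends on the group where it is high. With at least 10 counts asked of every sample it was not tested. In DMSO, MICA had 40, 17 and 13 counts and MICB 17, 15 and 16. In Erastin they had 32, 11 and 27 counts and 16, 32 and 25 counts, and neither was called. None of 16 genes of MHC class I presentation was called by edgeR, DESeq2 or limma-voom, beside 2.42% higher and 3.27% lower among all genes. Of these 16, 1 had an unadjusted edgeR p under 0.05, and their median was -0.04.

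The 10 largest falls called without correction included IGFBP5, BMPER, SERPINB2, PLAU and STC1, all of which encode secreted proteins. IGFBP5, which binds insulin-like growth factors, fell from 16.1, 15.1 and 15.1 CPM to 7.94, 6.06 and 7.32 CPM (log2 fold change -1.12 ± 0.11, adjusted p = 1.05e-05). It was the only one of 14 genes of the IGF system to be called in this fit. Of 18 genes of the TGF-beta and BMP list 4 fell and none rose, among them BMPER, GREM1 and FST, secreted binders of bone morphogenetic proteins or activins. GREM1 fell from 29.2, 30.7 and 25.3 CPM to 17.2, 18.0 and 15.8 CPM and BMPER from 4.58, 4.20 and 4.55 CPM to 2.19, 2.26 and 2.62 CPM. FST was called only with the GC trend removed, and the list's count was 2 without DMSO replicate 2 or without any 1 of the Erastin replicates. IL11, a cytokine of the IL-6 family, fell from 10.6, 10.2 and 11.4 CPM to 6.56, 6.26 and 6.75 CPM. It was 1 of 5 of 18 cytokine and NF-kappaB target genes called lower, with none higher and a median of -0.27, and the count was 1 without DMSO replicate 2 and 2 without any 1 of the Erastin replicates.

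The plasminogen system fell in 4 of 14 genes and rose in none, and all 14 log2 fold changes were negative, with a median of -0.16. PLAU, the urokinase that activates plasminogen, fell from 20.7, 20.4 and 18.3 CPM to 10.9, 12.3 and 11.7 CPM. SERPINB2, a serpin that inhibits urokinase, fell from 11.3, 11.7 and 10.7 CPM to 6.37, 6.87 and 4.81 CPM. The list's count was 2 without DMSO replicate 2 and without Erastin replicates 2 or 3, where PLAU and SERPINB2 stayed called.

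Genes of the aryl hydrocarbon receptor, a ligand-activated transcription factor, had the lowest median of the lists shown in the plot of list medians, at -0.43. Of 7 tested 5 fell and 1 rose. CYP1A1, the classical target that oxidises aromatic compounds, fell from 3.37, 3.21 and 4.11 CPM to 1.75, 1.72 and 1.44 CPM. CYP1B1 fell from 425, 426 and 468 CPM to 284, 289.9 and 293 CPM, and TIPARP, a target that feeds back on the receptor, from 79.3, 82.2 and 87.5 CPM to 55.1, 57.6 and 55.1 CPM. These 3 were called in both fits. The repressor AHRR fell by 0.43 on the log2 scale (SE 0.07) and the receptor AHR by 0.24 (SE 0.06). The member that rose was NQO1, which is shared with the NRF2 list.

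Of the remaining large falls called without correction, TRPV2, a calcium-permeable channel, went from 2.71, 3.02 and 2.99 CPM to 1.43, 1.19 and 1.51 CPM. ANXA10, an annexin, and TMEM176A, a membrane protein, fell by 0.83 and 0.77 on the log2 scale (SE 0.12 and 0.09).

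Genes of cholesterol synthesis were called lower in the fit with the GC trend removed, where 12 of 24 fell and none rose. Without the correction none was called by edgeR, DESeq2 or limma-voom, and 11 had an unadjusted edgeR p under 0.05. On these uncorrected counts 9 were called lower without DMSO replicate 3 and 2 with a replicate block. All 24 log2 fold changes were negative, with a median of -0.23. HMGCS1, which makes the precursor HMG-CoA, fell from 89.0, 92.2 and 96.1 CPM to 75.1, 66.2 and 68.8 CPM (-0.40 ± 0.06, adjusted p = 0.00045, against 0.22 without the correction). SQLE, which oxidises squalene, fell from 189, 182 and 175 CPM to 153, 154 and 143 CPM. INSIG1, which holds back the regulator SREBP, fell from 66.1, 69.7 and 70.7 CPM to 56.5, 52.5 and 54.7 CPM. SREBF2, which encodes the regulator itself, was not called (-0.05 ± 0.05). The count of 12 was 7 without DMSO replicate 2, 5 and 6 without Erastin replicates 2 and 3, 4 with limma-voom and 2 in the fit over all 12 samples.

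Fatty acid synthesis moved the same way in sign, with all 11 log2 fold changes negative and a median of -0.13. FADS1, FADS2 and ELOVL6, which desaturate or lengthen fatty acids, were called lower by 0.20, 0.19 and 0.21 on the log2 scale. FASN, the synthase itself, had overlapping groups at 909 to 1166 CPM. No member of this list was called without Erastin replicate 2 or replicate 3, with limma-voom or in the fit over all 12 samples, and 1 was called without DMSO replicate 2 and 1 without Erastin replicate 1.

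Genes of the matrix fell in 8 of 21 collagens, with none higher and a median of -0.19, all with the GC trend removed alone. COL13A1, a transmembrane collagen, fell from 9.49, 9.19 and 9.49 CPM to 6.13, 6.38 and 5.50 CPM, and COL4A6 of basement membranes from 18.6, 15.7 and 13.5 CPM to 11.3, 10.2 and 10.6 CPM. COL6A3 and COL6A1, more abundant at 134 to 377 CPM, fell by 0.32 and 0.19 on the log2 scale. The count for collagens was 5, 4 and 3 without Erastin replicates 1, 2 and 3 and 0 in the fit over all 12 samples. Of 42 integrins and other matrix genes 9 fell and 1 rose. Among all genes 3.27% were called lower and 2.42% higher, so the single rise was near that share. HAS2, which makes hyaluronan, fell from 81.3, 83.2 and 81.4 CPM to 65.8, 54.4 and 61.2 CPM, while ITGB5, an integrin subunit, rose by 0.23 ± 0.05. Without DMSO replicate 2 the matrix list had 5 falls and without Erastin replicates 2 or 3 it had 2, and ITGB5 was not called in these 3 fits.

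**Figure D4:**
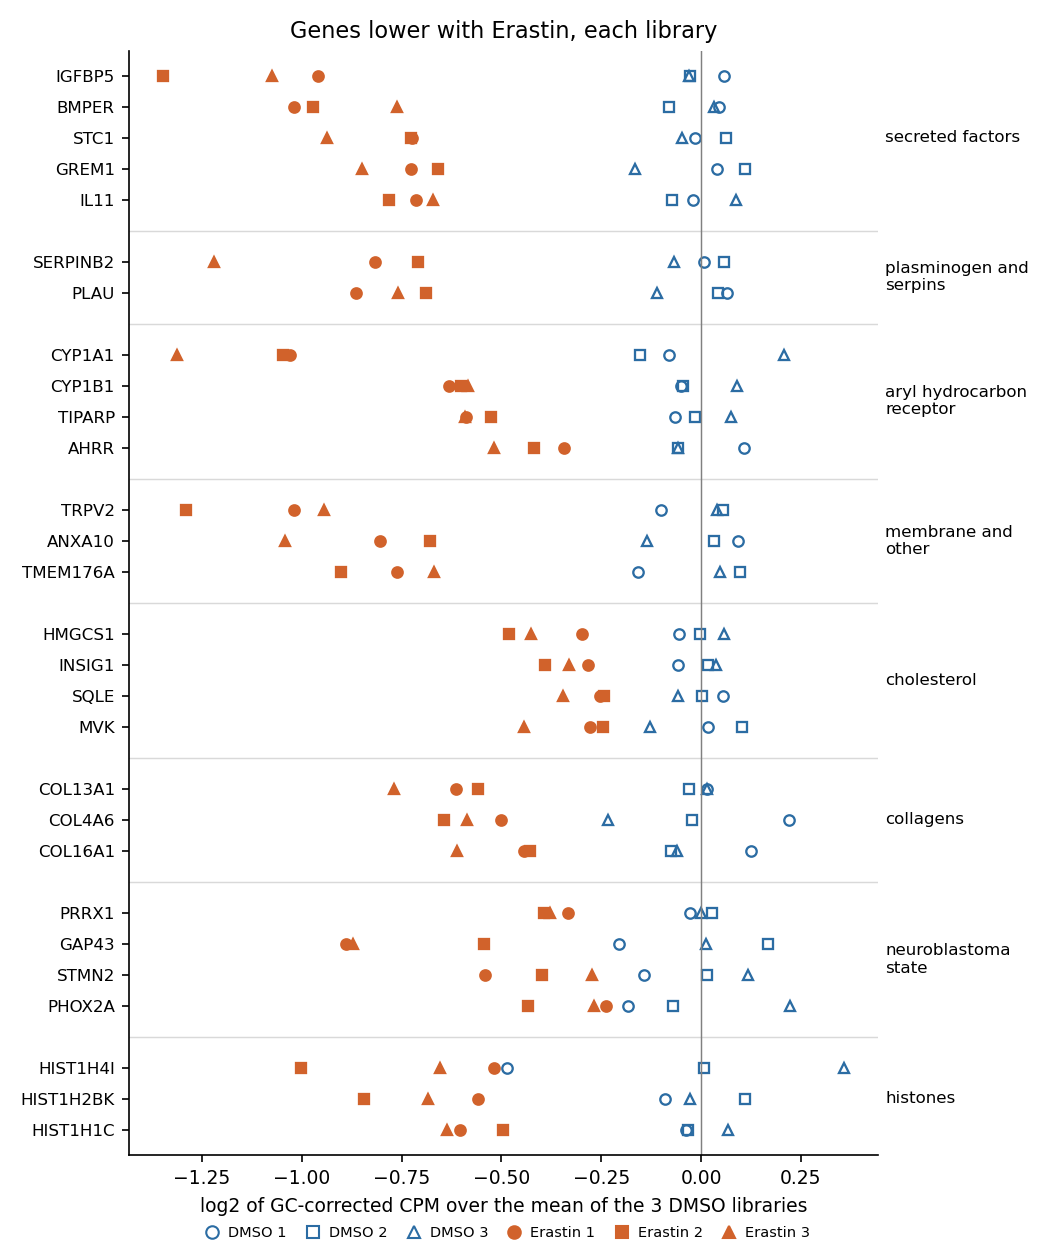
Log2 of GC-corrected CPM over the mean of the 3 DMSO libraries (x axis) for genes that fell, 1 row per gene, with blue open symbols for DMSO and orange filled symbols for Erastin and the shape giving the replicate. The cholesterol genes shift by less than the secreted factors, and HIST1H4I has DMSO replicate 1 beside Erastin replicate 1.

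Markers of both neuroblastoma states were lower in part, beside 3.27% of all genes called lower and 2.42% higher. PRRX1, a homeobox factor of the mesenchymal state, fell from 308, 319.7 and 314 CPM to 249, 239 and 241 CPM (-0.37 ± 0.04, adjusted p = 7.4e-05) and was called without any 1 of the 6 libraries. It was 1 of 5 of 21 mesenchymal genes called lower, beside 1 called higher, FOSL2 of the AP-1 family (0.21 ± 0.05). Of 20 adrenergic and catecholamine genes 5 fell and none rose, with a median of -0.20. GAP43, a growth cone protein of neurons, fell from 6.62, 8.58 and 7.70 CPM to 4.12, 5.23 and 4.17 CPM, and PHOX2A, a homeobox factor of sympathetic neurons, from 81.0, 87.7 and 107 CPM to 78.0, 68.1 and 76.4 CPM. The groups of PHOX2A were close, with Erastin replicate 1 just below DMSO replicate 1. The mesenchymal count was 2 without DMSO replicate 2, 3 without Erastin replicate 1 and 1 without Erastin replicates 2 or 3, and the adrenergic count was 2, 1, 1 and 3 without DMSO replicate 2 and Erastin replicates 1, 2 and 3.

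Outputs of growth signalling were mixed. Of 24 genes that follow MAPK activity 6 fell and 3 rose, with a median of -0.10. Among all genes 3.27% were called lower and 2.42% higher. CCND1, cyclin D1, fell from 506, 507 and 537 CPM to 417, 404 and 401 CPM, and SPRED3, an inhibitor of the pathway, from 41.6, 40.9 and 41.0 CPM to 30.2, 30.5 and 30.5 CPM. ETV5, a transcription factor of the same output, rose from 63.9, 63.2 and 64.4 CPM to 77.5, 80.7 and 80.0 CPM, so the list did not move 1 way. Targets of YAP and TEAD rose in 5 of 16 cases and fell in 1, with a median of 0.20, among them AMOTL2 from 71.8, 69.3 and 62.3 CPM to 88.6, 88.2 and 85.2 CPM. The falls of the MAPK list numbered 3 without DMSO replicate 2 or Erastin replicates 2 or 3, and the rises of the YAP list 2 in these fits.

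In the cell cycle lists 1 of 36 DNA replication genes and 2 of 30 mitosis genes were called lower, beside 3.27% of all genes, with medians of -0.04 and -0.07, and none was called without DMSO replicate 2 or any 1 of the Erastin replicates. Replication-dependent histones, whose transcripts mostly lack a poly(A) tail and have near-identical copies, fell in 6 of 35 cases, with a median of -0.21. HIST1H2BK fell from 66.8, 76.8 and 69.7 CPM to 48.3, 39.6 and 44.3 CPM and HIST1H1C from 32.8, 32.9 and 35.2 CPM to 22.1, 23.8 and 21.6 CPM, both in both fits. The histone count was 2 without DMSO replicate 2 or Erastin replicate 2, 4 without Erastin replicate 1 and 3 without Erastin replicate 3.

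Transcripts of the mitochondrial genome moved in both directions, beside 2.42% of all genes called higher and 3.27% lower with the GC trend removed. Of 13, 6 rose and 2 fell, none of them without the correction, where edgeR, DESeq2 and limma-voom called 0 of 13 and 10 had an unadjusted edgeR p under 0.05. MT-ND6, the one protein encoded on the light strand, rose from 557, 609 and 691 CPM to 737, 792 and 867 CPM, and MT-CO1 from 13201, 14226 and 14202 CPM to 15148, 15977 and 17786 CPM. MT-CO3 fell from 3861, 4265 and 4019 CPM to 3235, 3246 and 3348 CPM (-0.31 ± 0.05, adjusted p = 0.00116), and MT-ND3 by 0.22 on the log2 scale (SE 0.06). The rises were 4, 2 and 2 without DMSO replicate 1, DMSO replicate 2 and Erastin replicate 2 and none without Erastin replicate 3, whereas MT-CO3 stayed called in each of these fits.

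**Figure D5:**
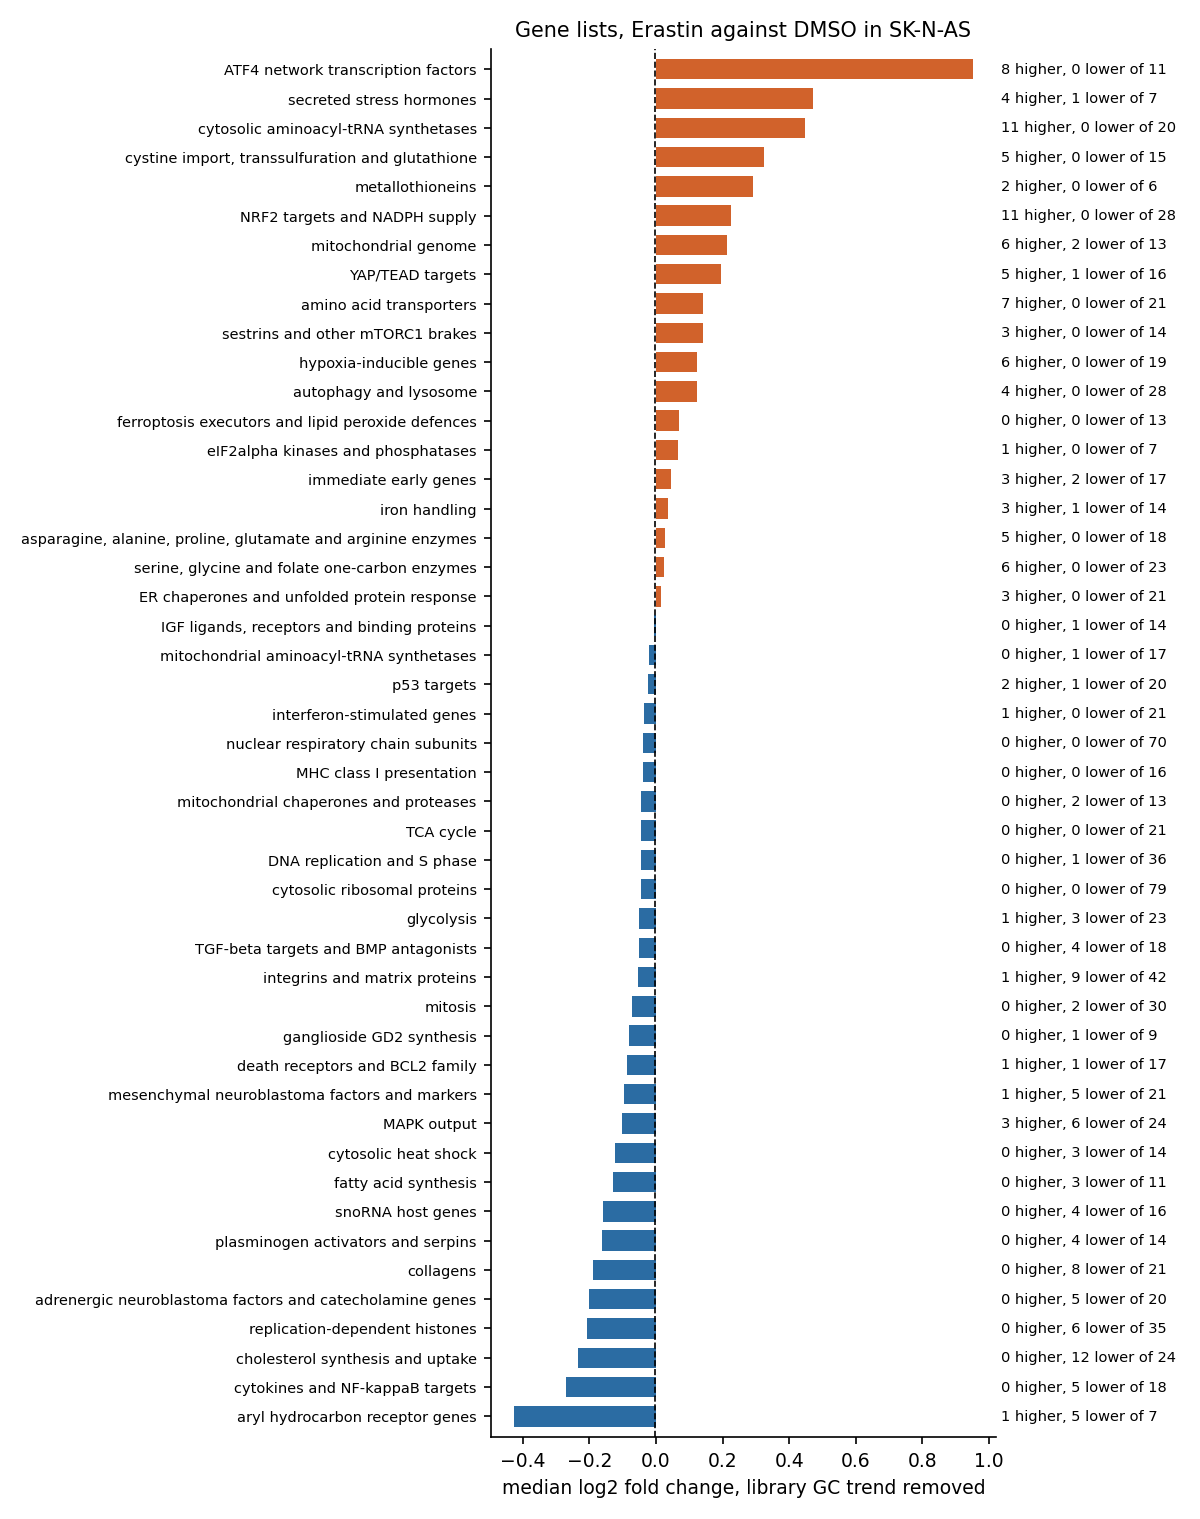
Median log2 fold change of each gene list with at least 5 genes tested (bars, x axis; orange above 0, blue below 0), with the number of genes called higher and lower at the right and the median of all genes tested as a dashed line. The ATF4 network, the secreted stress hormones and the cytosolic tRNA synthetases stand at the upper end, and the aryl hydrocarbon receptor, cytokine and cholesterol lists at the lower end.

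The genes called only after the GC trend was removed were mostly scarce where their change was large. By the size of the rise they were led by FRAT1, a regulator of WNT signalling, which had 2.26, 1.97 and 1.88 CPM with DMSO and 2.89, 5.28 and 3.73 CPM with Erastin (0.96 ± 0.22). VLDLR, a lipoprotein receptor, had 2.36, 2.18 and 2.25 CPM and 3.37, 5.24 and 4.13 CPM. The other 8 (LINC01270, ZNF506, ZBED3-AS1, BSN, CDC42EP1, LRRC29, ONECUT2 and TRIM16) rose by 0.69 to 0.89 on the log2 scale. Of these named rises, FRAT1 and VLDLR included, only CDC42EP1 and TRIM16 were called in every fit that left out a library. By the size of the fall they were led by GPR89B, which had 7.62, 13.1 and 14.2 CPM with DMSO and 5.42, 5.26 and 5.36 CPM with Erastin (-1.13 ± 0.18), but this gene has a near-identical copy and DMSO replicate 1 stood apart from the other 2. CDH20, a cadherin, fell from 3.82, 4.06 and 3.51 CPM to 2.08, 2.25 and 1.43 CPM, and TAC1, the precursor of substance P, from 2.69, 3.18 and 3.85 CPM to 1.79, 1.38 and 2.09 CPM. The other 7 (DDN, FST, CCDC85A, RD3, FOXC2, RASGRP3 and GAP43) fell by 0.75 to 0.85. Of the named falls, TAC1, FST, RD3 and RASGRP3 were not called in every fit that left out a library.

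The difference between the Erastin effects in SK-N-AS and KELLY was tested as an interaction over all 12 samples. On uncorrected counts 1 of 18239 genes was called (0.00548%), and with the GC trend of each library removed 19 were (0.104%). The single gene was STC2, which rose less in SK-N-AS than in KELLY. KELLY cells had 1 µM and SK-N-AS cells 2 µM, so that line and dose cannot be told apart. ATF4 had a log2 fold change of 1.53 ± 0.06 in SK-N-AS and 0.55 ± 0.09 in KELLY, and PHGDH of 3.76 ± 0.16 and 1.29 ± 0.14. SLC7A11 was not among the 19, at 2.01 ± 0.08 and 2.43 ± 0.10 (adjusted p of the difference = 0.449).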

How the data were processed

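RNA-seq of the 6 SK-N-AS samples was read from the table of raw counts per gene that the authors deposited, without normalization, with the KELLY table used for the difference between lines. The submitters' processing notes name Trimmomatic, HTSeq, DESeq2 and GRCh38, and the methods name a GENCODE annotation. The aligner and the strand setting are not given in the sources used here. Repeated gene names (1568) were kept as separate rows.

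Genes were filtered with filterByExpr and scaled by TMM, and Erastin was compared with DMSO by the quasi-likelihood test of edgeR 4.0.16 in R 4.3.3, with Benjamini-Hochberg adjustment over 16095 genes. A gene could pass this filter through 1 group alone. The GC correction fitted a loess (span 0.5, degree 2) of each library's log2 ratio on exonic GC content from GENCODE release 44, over genes of mean log2 CPM 1 or more, and used it as an offset. A GC value was found for 89.15% of tested genes, and the others had no GC offset. SE is the log2 fold change over the root of F. GC-corrected CPM are counts over that offset.

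Genes were named by rule: the 10 largest rises and falls without correction, and the 10 largest called only with it (groups not overlapping, mean log2 CPM 1 or more), the genes the study names (a few genes that meet the rule are not reported here), and called members of the 48 lists with the smallest p-values. Members and lists were chosen with earlier results of these data known. Uncalled members were named as contrasts after their values were seen. The scripts were tested on simulated data. Alternatives used DESeq2 1.42.0, limma-voom (limma 3.58.1), other scalings, filters and curves, a replicate block and each sample left out. Counting intervals are exact (Clopper-Pearson, 95%).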

Additional observations from a re-analysis of the deposited data

Results flagged for a closer look

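With the GC trend of each library removed, the Erastin effect differed between SK-N-AS and KELLY in 19 genes by the interaction term of edgeR's quasi-likelihood test over all 12 samples. Values below are the SK-N-AS minus KELLY difference of log2 fold changes. Line and dose (2 and 1 µM) cannot be told apart, and without the GC correction STC2 alone was called. Genes that rose more in SK-N-AS were PHGDH (2.47), CHAC1 (2.12), PSAT1 (1.07), SLC1A4 (1.04), ATF4 (0.98), MTHFD2 (0.89), GCLM (0.84), SLC7A5 (0.74), AARS (0.73), PPM1E (0.70), CEBPG (0.60) and DDR2 (0.55). PPM1E, a phosphatase, and DDR2, a collagen receptor kinase, belonged to none of the lists.

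STC2 had a difference of -1.91, with a log2 fold change of 0.57 ± 0.06 in SK-N-AS and 2.48 ± 0.13 in KELLY. ASS1, of arginine synthesis, had a difference of -1.34, at 0.03 ± 0.05 and 1.38 ± 0.12. CDKN1A differed by -0.84 and DDC, which makes dopamine, by -0.68, both with values below 0 in SK-N-AS (-0.14 and -0.22) and above 0 in KELLY (0.70 and 0.46). IGFBP5 differed by -1.12 and STC1 by -1.08, and both fell in SK-N-AS and had 0.00103 and 0.29 in KELLY. PLAU differed by -3.34 with an SE of 0.58, and KELLY libraries held too few reads of it for a value of their own.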

How the results depend on the processing

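Without GC correction the 74 higher and 32 lower calls became 113 and 108 with DESeq2, 41 and 5 with all 12 samples in 1 fit, 136 and 129 without a filter on low counts, and 390 and 526 with the GC trend removed. Leaving out 1 replicate gave 47 to 289 higher and 6 to 566 lower. With the GC trend removed, the 390 and 526 became 796 and 1035 with the GC slope as a covariate, 205 and 214 with limma-voom and 111 and 69 with all 12 samples, and 171 to 554 and 181 to 725 with 1 replicate left out. At the study's threshold, 215 higher and 214 lower became 450 and 401 without a filter, 60 and 25 with an adjusted p, and 107 and 72 with the fold limit inside the model, and protein-coding genes alone gave 139 higher. The 1 gene that differed between lines became 12 with DESeq2, 19 with the GC trend removed and 0 with edgeR and a replicate block (420 at an unadjusted p under 0.05). The cause of these shifts was not tested. Medians of gene lists near 0 changed sign in places, to -0.0157 for the eIF2α list and -0.0041 for asparagine and related enzymes without DMSO replicate 3, -0.0039 for the serine list without Erastin replicate 2 and -0.0941 for immediate early genes without Erastin replicate 1.

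A replicate block gave 146 higher and 162 lower without and 638 and 781 with the GC correction. Whether the replicate numbers pair the samples could not be told from so few libraries. Deviations of same-numbered samples correlated at -0.14, 0.21 and 0.42, and those of differently numbered samples between -0.52 and 0.45. With the GC trend removed, same-numbered samples gave 0.00265, 0.14 and 0.18, and differently numbered ones lay between -0.21 and 0.095. Genes at a few counts are limited by depth, as the interval of 7.43 to 237 for ULBP1 shows.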

Other observations

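A pair of gene groups outside the lists above was examined after values had been seen. Selenoproteins, which carry selenocysteine and include GPX4 and the thioredoxin reductases, had 18 of 25 members tested, with 1 called higher, 3 lower and a median log2 fold change of -0.06. The rise was that of TXNRD1. Of all genes 2.42% were called higher and 3.27% lower with the GC trend removed. SELENOW, a small redox protein, fell from 30.8, 31.1 and 30.6 CPM to 18.6, 16.7 and 20.1 CPM (-0.74 ± 0.08), in both fits. SELENOH, a nuclear selenoprotein, fell from 79.6, 79.5 and 66.8 CPM to 53.4, 52.8 and 48.9 CPM, and GPX1, the cytosolic glutathione peroxidase, by 0.48 on the log2 scale (SE 0.08), both with the GC trend removed alone.

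Of 35 factors of ribosome biogenesis 6 were called lower and none higher, and 31 log2 fold changes were negative, with a median of -0.10. The 6 were BOP1, LYAR, NCL, NPM1, GNL2 and MRTO4, with falls between 0.16 and 0.28 on the log2 scale. Among all genes 3.27% were called lower with the GC trend removed. None of the 35 was called by edgeR, DESeq2 or limma-voom without the GC correction, and 5 had an unadjusted edgeR p under 0.05.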
